A study of Mus musculus with 714 samples.

Results

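Muc1, Muc4 and Fcgbp are genes of the mucus layer that covers wet epithelia, and each has 1 row among the 12479 gene rows of a single-cell table from the developing mouse uterus. These 3 rows were taken by name and described across the 5 ages of the study, by their level, by the share of cells with a count and by how often they were counted in the same cell. Mucins are long proteins whose many serine and threonine residues carry chains of sugars. Muc1 and Muc4 are anchored in the apical membrane and form the cell-bound part of the mucus. Fcgbp, the IgG Fc-binding protein, is secreted and lies with gel-forming mucins in the looser layer. In the mouse uterus Muc1 is a known anti-adhesive cover of the lumen whose amount follows ovarian steroids, and rat Muc4 is known to bind the receptor ErbB2.

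The study followed uterine epithelium of ICR mice from birth to adulthood in cells sorted for CD326, which is EpCAM, an adhesion protein of epithelial cells. The 714 cells fall into 5 groups by age in days after birth (pnd), with 24.2% of them at pnd0, 37.4% at pnd7, 24.2% at pnd14, 56 cells at pnd28 and 45 cells at pnd56. No treatment, genotype or transgene is named beside the strain. Libraries were made by CEL-seq, which reads the 3' end of each transcript, and the values are counts per gene and cell. The labels name no animal, litter, pool or stage of the oestrous cycle. Each age therefore stands as 1 sample, no test between ages was possible, and every interval below is a 95% interval of counting error only. In samples summed over cells, fewer expressing cells and less RNA per cell cannot be told apart from a level alone, so shares of cells and levels within cells are given as well.

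Depth and cell content differed between ages. The ages summed to 582615, 732957, 354047, 96248 and 81894 counts, and had medians of 3037, 2492, 1782, 1600 and 1670 counts per cell. Cell titles fall into 10 runs of 96 numbers, counted here in title order, each of 1 age, with 2 runs at pnd0, 3 each at pnd7 and pnd14 and 1 each at pnd28 and pnd56, so run and age cannot be told apart. The keratin gene Krt18, a marker of simple epithelium, was counted in 98.8%, 98.9%, 91.9%, 78.6% and 91.1% of cells over the 5 ages. Markers of luminal epithelium, with all 11 listed genes in the table, held 2.59% of pnd56 counts against 0.620% to 0.715% at the other ages, although Krt19, Lpar3 and Calb1 were among those at 0 at pnd56. Markers of glandular epithelium, with 7 of 9 in the table, held 0.00481%, 0.0235%, 0.0695%, 2.06% and 0.523% over the 5 ages. Their sum was thus higher at pnd28 and pnd56, although Cxcl15 and Wif1 were at 0 at both ages and Prss28 and Prss29 at pnd56. Erythroid genes, with 4 of 7 in the table, held 1.35% of pnd0 counts, with 2.66% in one run and 0.000696% in the other, and were at 0 at pnd56. Smooth muscle genes, with 4 of 7 in the table, held 0.0110% of pnd56 counts and 0.281% of pnd14 counts, the last with 0.170% to 0.324% by run. Stroma genes, with 7 of 8 in the table, held 0.332% at pnd28 and 0.286% at pnd56 against 0.00395% at pnd0. Immune genes, with 5 of 9 in the table, held 0.0436% at pnd28 and 0.0256% at pnd56 against 0.00292% at pnd0, and Ptprc, the common leukocyte gene, was at 0 at both later ages. The part of these other cells in the results below was not tested.

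The start of each gene is shown by its promoter, since all 3 genes stood higher at pnd56 than at birth. The sequences are the 250 bases before the annotated start in RefSeq, 5′ to 3′, on the plus strand of build GRCm38.p6, which is another build than the mm9 named in the submitters' processing notes. Capitals mark matches to any of 6 motifs searched on both strands. These were the TATA box TATAAA, the GC box GGGCGG, the E-box CACCTG, the core GGTCA of the oestrogen response element, the STAT site TTCNNNGAA and the core TGTTCT of the progesterone and glucocorticoid receptors.
Muc1, chr3:89228806-89229055: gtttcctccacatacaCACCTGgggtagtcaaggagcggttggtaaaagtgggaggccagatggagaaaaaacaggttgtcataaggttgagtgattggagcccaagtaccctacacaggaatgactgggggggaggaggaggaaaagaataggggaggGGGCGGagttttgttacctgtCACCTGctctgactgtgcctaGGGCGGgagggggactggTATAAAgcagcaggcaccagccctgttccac
Muc4, chr16:32735636-32735885: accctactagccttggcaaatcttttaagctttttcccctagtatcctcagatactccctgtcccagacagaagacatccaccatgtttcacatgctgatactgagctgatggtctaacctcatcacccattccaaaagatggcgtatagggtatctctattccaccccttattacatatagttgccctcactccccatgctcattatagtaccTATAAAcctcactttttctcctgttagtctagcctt
Fcgbp, chr7:28070986-28071235: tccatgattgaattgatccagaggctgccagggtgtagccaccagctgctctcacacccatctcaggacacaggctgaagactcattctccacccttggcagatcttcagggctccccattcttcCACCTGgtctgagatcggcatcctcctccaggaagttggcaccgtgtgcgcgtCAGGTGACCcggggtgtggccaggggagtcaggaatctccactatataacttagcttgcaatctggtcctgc

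The windows of the 3 genes differed in their exact matches to the motifs. TATAAA stood 31 to 26 bases before the start of Muc1 and 36 to 31 bases before that of Muc4, and the Fcgbp window held no exact match. Near its 3′ end the Fcgbp window holds tatataa, a near match that the exact search leaves out. TATAAA is present in 12.4% of the 32851 promoter windows of the same length. GGGCGG occurred at 2 places in the Muc1 window and in 32.7% of all windows. CACCTG occurred at 2 places each in the Muc1 and Fcgbp windows and in 17.2% of all windows. The only GGTCA was in the Fcgbp window, on the minus strand and overlapping an E-box by 2 bases, and 35.2% of all windows hold one. TTCNNNGAA and TGTTCT, in 7.02% and 16.1% of all windows, were in none of the 3. The share of G and C was 54.8% for Muc1, 43.6% for Muc4 and 56.4% for Fcgbp, against a median of 52.4%. A match of letters is not a bound site.

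Neighbouring genes matter for a 3' count. Muc1 has no overlapping gene in GENCODE M21. Within 2 kb on the other strand lie Trim46 downstream, with 4 counts in all cells, and Mtx1 1969 bases upstream. Muc4 overlaps Muc20, another transmembrane mucin gene, on the other strand. Muc20 has no row of its own among the gene rows. The sources used here do not give whether strand entered the counting, so reads of the pair may stand together in the Muc4 row. Fcgbp has no other gene within 2 kb.

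Muc1, the membrane mucin of the uterine lumen, was lowest at pnd14 and highest in the adult. Its level, in counts per 1000000 counts of an age (CPM), was 379.3 at pnd0 [330.96, 432.8], 319.3 at pnd7 [279.7, 362.9], 192.1 at pnd14 [149.1, 243.5], 592.2 at pnd28 [448.5, 767.3] and 2064 at pnd56 [1764, 2399]. These rest on 68 counts at pnd14, 57 at pnd28 and more than 100 at each other age. The adult level was 5.44-fold that at birth. In single runs the level was 416.4 and 341.2 CPM at pnd0, 283.3, 282.5 and 376.6 CPM at pnd7 and 295.95, 168.4 and 110.7 CPM at pnd14. The pnd7 runs overlapped the pnd0 runs, and 1 of the 3 pnd14 runs lay within the range of the pnd7 runs. The single runs of pnd28 and pnd56 lay above every run of the earlier ages.

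**Figure D1:**
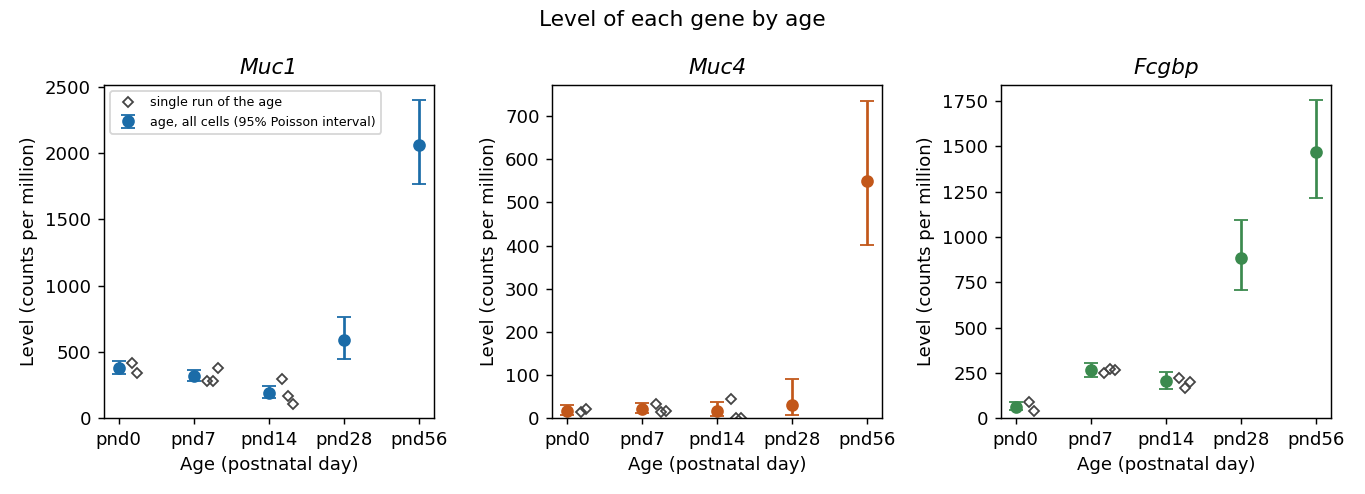
Level of Muc1, Muc4 and Fcgbp (counts per 1000000, linear axis from 0) at each age, as filled points with 95% Poisson intervals over all cells of the age, and as open diamonds for single runs where an age has more than 1. Muc1 stands at 192.1 at pnd14 before 2064 at pnd56, Muc4 stays at or below 31.2 until pnd56, and Fcgbp stands at 1465 at pnd56 against 63.5 at birth.

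Both the share of cells with Muc1 and the amount per cell were larger in the adult. Muc1 was counted in 40.5% of pnd0 cells [33.1, 48.2], 28.5% of pnd7 cells [23.1, 34.3], 13.3% of pnd14 cells [8.62, 19.3], 28.6% of pnd28 cells [17.3, 42.2] and 68.9% of pnd56 cells [53.4, 81.8]. These shares move with depth. With each cell thinned to 1500 counts the expected shares were 28.5%, 22.5%, 11.5%, 27.7% and 71.7%, leaving out 9, 13, 60, 23 and 20 shallower cells. Among cells with a count, the median level was 635.3 CPM at pnd0, 732.9 at pnd7, 960.6 at pnd14, 1281 at pnd28 and 2522 at pnd56. In these cells a single count weighs more at a low depth, so the first 4 of these medians are not read as an order. The highest single cell stood at 3008, 7704, 5171, 6752 and 6129 CPM, so some cells of the younger ages reached the levels of adult cells. Of the 31 adult cells with a count 17 had 5 counts or more, against 13 of the 70 pnd0 cells with a count.

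Muc4, the second membrane mucin, was nearly uncounted until the adult. Its level was 17.2 CPM at pnd0 [8.23, 31.6], 21.8 at pnd7 [12.5, 35.4], 16.9 at pnd14 [6.22, 36.9], 31.2 at pnd28 [6.43, 91.1] and 549.5 at pnd56 [400.8, 735.3], from 10, 16, 6, 3 and 45 counts. The first 4 ages do not differ beyond counting error. Neighbours in the order of their levels had log2 ratios of 0.02 [−1.58, 1.76] for pnd0 over pnd14, 0.35 [−0.88, 1.65] for pnd7 over pnd0 and 0.51 [−1.91, 2.32] for pnd28 over pnd7. All 6 pnd14 counts were in 1 cell of 1 run, and the other 2 pnd14 runs had none, which allows up to 45.9 and 19.5 CPM by 3 counts of each run's total. At pnd7 1 cell held 6 of the 16 counts. At pnd56 19 of 45 cells had a count, the largest held 12 of the 45 counts, and the shares of cells were 4.62%, 3.37%, 0.578%, 3.57% and 42.2% [27.7, 57.8] over the 5 ages. At 1500 counts per cell the adult share was 37.4% against 0 to 4.47% at the other ages.

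Fcgbp, the secreted Fc-binding protein, was lowest at birth and highest in the adult. It stood at 63.5 CPM at pnd0 [44.7, 87.5], 263.3 at pnd7 [227.5, 303.2], 203.4 at pnd14 [159.1, 256.1], 883.1 at pnd28 [705.4, 1092] and 1465 at pnd56 [1215, 1752]. These rest on 37 counts at pnd0, 72 at pnd14, 85 at pnd28 and more than 100 at pnd7 and pnd56. The runs stood at 88.02 and 38.3 CPM at pnd0, at 250.5, 272.7 and 267.5 CPM at pnd7 and at 221.96, 168.4 and 201.9 CPM at pnd14. The 3 pnd7 runs lay above both pnd0 runs, and the 3 pnd14 runs lay below the pnd7 runs by less than the counting error of the pooled ages. Cells with a count were 11.6% [7.21, 17.3], 29.2% [23.8, 35.1], 20.2% [14.5, 26.997], 35.7% [23.4, 49.6] and 68.9% [53.4, 81.8]. At 1500 counts per cell they were 6.20%, 22.5%, 20.7%, 32.04% and 66.4%. In cells with a count the median level was 346.4 CPM at pnd0, 683.9 at pnd7, 670.9 at pnd14, 2108 at pnd28 and 1558 at pnd56. At pnd28 9 of 56 cells had 5 counts or more and 5 cells held 46 of the 85 counts.

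**Figure D2:**
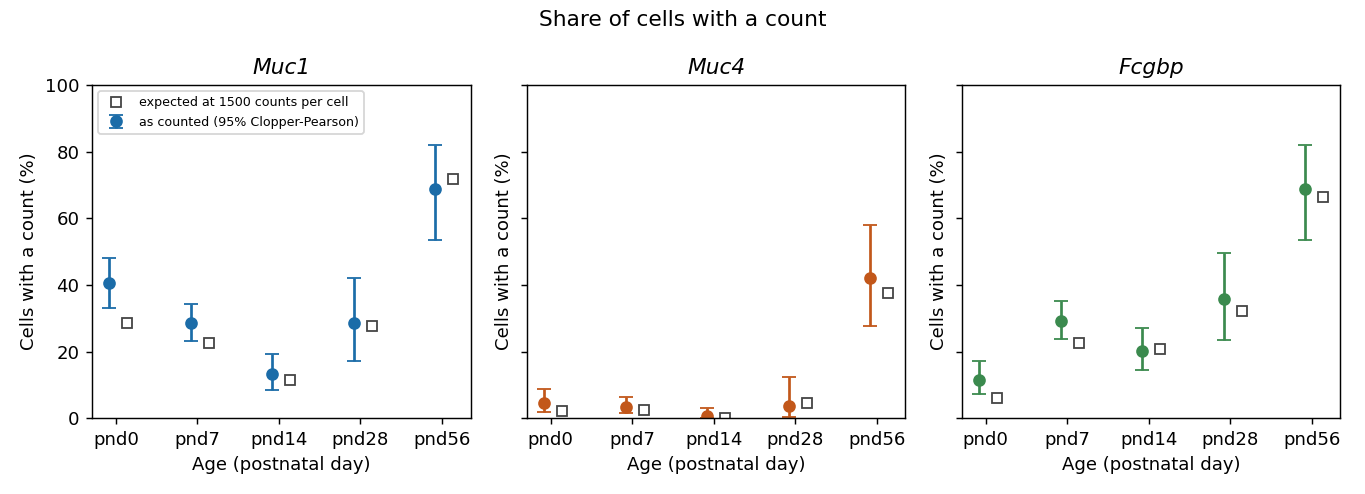
Cells with at least 1 count (percent of the cells of an age) for Muc1, Muc4 and Fcgbp, as filled points with 95% Clopper-Pearson intervals, and as open squares the share expected with each cell thinned to 1500 counts. The adult shares of 68.9%, 42.2% and 68.9% lie above the intervals of all younger ages, and the squares fall well below the filled points at pnd0, the deepest age.

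Cells of other types give the shares against which these can be set. Of 12 pnd14 cells with counts of at least 3 smooth muscle genes, with a median of 1887 counts, 1 had a count of Muc1 and 2 had a count of Fcgbp. The muscle cells stood at 8.33% [0.211, 38.5] for Muc1 and 16.7% [2.09, 48.4] for Fcgbp. In the rest of pnd14, at a median depth of 1782, the shares were 13.7% [8.77, 19.95] for Muc1 and 20.5% [14.5, 27.6] for Fcgbp. At pnd14 neither share can therefore be set apart from that in these cells. No such cell was found at pnd0, pnd7 or pnd56, and 1 was found at pnd28. At pnd28 the 12 cells without Krt18, at a median depth of 1434, held no Fcgbp count, which allows up to 167.3 CPM by 3 counts of their total, while the 44 cells with Krt18 stood at 1085 CPM [866.99, 1342]. Muc1 had 14 counts in 3 of those 12 cells. The absence of Fcgbp without Krt18 was not seen at pnd14 or pnd56. At pnd14 Fcgbp stood at 193.7 CPM in 14 cells without Krt18 against 204.1 with it. The log2 ratio of cells with over cells without was 0.08 [−1.22, 1.74]. At pnd56 Fcgbp was counted in 3 of 4 cells without Krt18, at 1558 CPM against 1458 with it. The cells without Krt18 were not assigned to a type.

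The first comparison asks what the first week after birth brings. Fcgbp was 4.15-fold higher at pnd7 than at pnd0, at 263.3 against 63.5 CPM, a log2 ratio of 2.05 [1.54, 2.60]. Without run 1 of pnd0 the log2 ratio was 2.78, and without run 2 it was 1.58. Muc1 had −0.25 [−0.52, 0.02] and Muc4 had 0.35 [−0.88, 1.65], both intervals that include no difference. Of the 3 genes 1 was thus at least 2-fold higher, against 4.94% of the 5953 genes that reached 20 counts in the pair, and none was 2-fold lower, against 7.61%. Only 0.840% of those genes had a ratio above that of Fcgbp, and the median log2 ratio of all was −0.03.

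Between pnd7 and pnd14, when uterine glands form, none of the 3 genes moved by 2-fold, against 10.7% of 5553 genes at least 2-fold higher and 14.3% at least 2-fold lower. Muc1 stood at 192.1 CPM at pnd14 against 319.3 CPM at pnd7, with a log2 ratio of −0.73 [−1.14, −0.34]. The runs of the pair overlapped, and the ratio was −1.32 without run 3 and −0.33 without run 7 of pnd14, an interval that then includes no difference. Fcgbp had −0.37 [−0.78, 0.02] and Muc4 −0.37 [−2.01, 1.06].

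At pnd28 the pair with enough counts were both higher than at pnd14. Fcgbp was at 883.1 against 203.4 CPM, 4.34-fold higher, with a log2 ratio of 2.12 [1.65, 2.59]. Muc1 was at 592.2 against 192.1 CPM, 3.08-fold higher, with 1.62 [1.09, 2.15], and with 2.21 without run 3 of pnd14. Of 3785 genes measured 11.9% were at least 2-fold higher and 23.2% at least 2-fold lower, and 2.62% had a ratio above that of Fcgbp. Muc4, with 3 counts against 6, was under the minimum of 20 counts and its interval of −1.75 to 3.11 allows either direction.

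The adult step differed in size between the 3 genes. Muc4 was 17.6-fold higher at pnd56 than at pnd28, at 549.5 against 31.2 CPM, with a log2 ratio of 4.14 [2.50, 6.47]. Without the cell of the largest count at each age it was 5.28 [2.70, 10.6], since 1 of the 3 pnd28 counts then remains. Muc1 was 3.48-fold higher, at 2064 against 592.2 CPM, with 1.80 [1.36, 2.26]. Fcgbp was at 1465 against 883.1 CPM, 1.66-fold higher, with 0.73 [0.32, 1.15]. Here 2 of 3 were at least 2-fold higher, against 14.8% of 1797 genes, none was 2-fold lower, against 16.5%, and 0.445% of genes had a ratio above that of Muc4. The intervals of Muc4 and Fcgbp do not overlap. With median-of-ratios scaling, 11.2% of genes were higher and 20.7% lower. Each of these ages is 1 run.

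From birth to adulthood all 3 were at least 2-fold higher, against 10.3% of 4725 genes, and 27.4% of genes were at least 2-fold lower. The log2 ratio of pnd56 over pnd0 was 5.00 [3.99, 6.15] for Muc4, 4.53 [3.99, 5.10] for Fcgbp and 2.44 [2.15, 2.74] for Muc1, against a median of −0.34 over all genes. Of the genes measured 0.847% had a ratio above that of Muc4, 0.952% above that of Fcgbp and 2.35% above that of Muc1. The Fcgbp value was 5.26 without run 1 of pnd0 and 4.06 without run 2. This comparison shares its samples with those above, so its values are not a separate line of evidence.

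**Figure D3:**
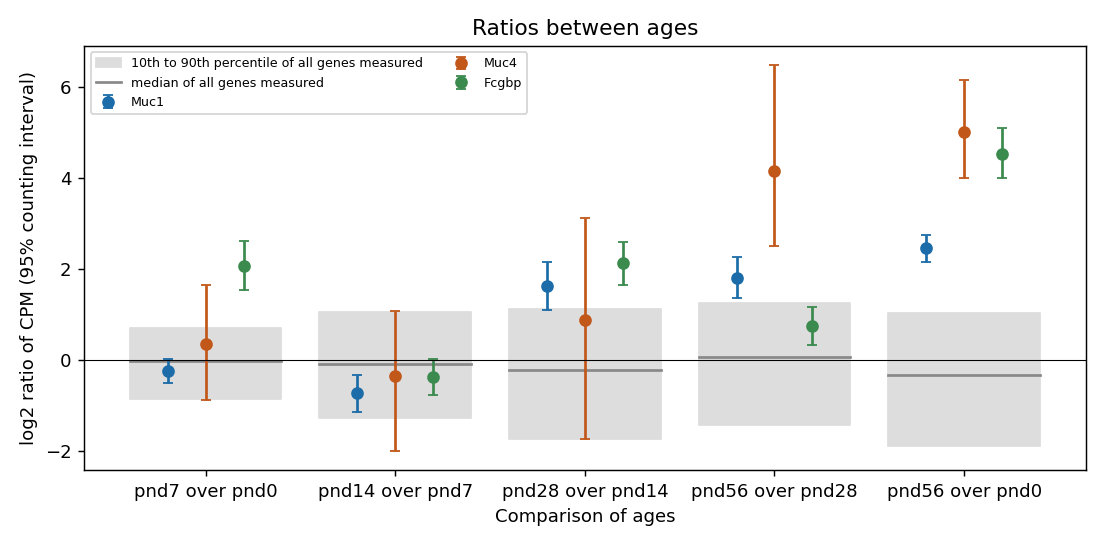
Log2 ratio of CPM for Muc1, Muc4 and Fcgbp in 5 comparisons of ages, with 95% counting intervals, over grey bands from the 10th to the 90th percentile of all genes with at least 20 counts and a line at their median. Fcgbp lies above the band at pnd7 over pnd0 (2.05), Fcgbp (2.12) and Muc1 (1.62) at pnd28 over pnd14, Muc4 (4.14) and Muc1 (1.80) at pnd56 over pnd28, and each of the 3 at pnd56 over pnd0. Muc4 at pnd28 over pnd14 is shown although it has under 20 counts.

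Counts of the 3 genes met in the same cell mainly in the adult, where each was also in many cells. At least 1 of them was counted in 45.7%, 50.9%, 29.5%, 51.8% and 91.1% of cells over the 5 ages. All 3 were counted in 12 of 45 adult cells, in 1 cell each at pnd7 and pnd28, and in none at pnd0 and pnd14. These 12 adult cells held 29.2% of the counts of the age over all genes, 55.6% of its Muc1, 75.6% of its Muc4 and 49.2% of its Fcgbp counts. The cells were picked by their counts of the 3 genes, so larger shares of these genes follow from the choice. The median depth of the 12 cells was 1832 counts, between the 1293 of adult cells with 1 of the 3 and the 1929 of adult cells with none.

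In the adult and at pnd7 the number of cells with both genes of a pair was near what the product of their shares gives. In the adult, Muc1 and Fcgbp were counted together in 24 of 45 cells, against 21.4 from the product of the shares. Fcgbp was present in 77.4% [58.9, 90.4] of the 31 cells with Muc1 and in 7 of the 14 without [23.04%, 76.96%]. Muc1 and Muc4 met in 14 adult cells against 13.1, and Muc4 and Fcgbp in 14 against 13.1. At pnd7, where Muc1 and Fcgbp were each in more than 70 cells, they met in 23 cells against 22.2, and Fcgbp was present in 30.3% of cells with Muc1 and 28.8% of cells without. At pnd0 they met in 13 cells against 8.09, with Fcgbp in 18.6% [10.3, 29.7] and 6.80% [2.78, 13.5], and cells with Muc1 were deeper, with a median of 3620 counts against 2730. At 1500 counts per cell the expected number at pnd0 was 4.14 against 2.90. At pnd14 they met in 8 cells against 4.65 and at pnd28 in 8 against 5.71. In each pair of intervals given here the values with and without Muc1 overlap. Muc4 met Muc1 in 5, 2, 0 and 1 cells and Fcgbp in 1, 3, 0 and 1 cells at the first 4 ages, too few to compare.

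**Figure D4:**
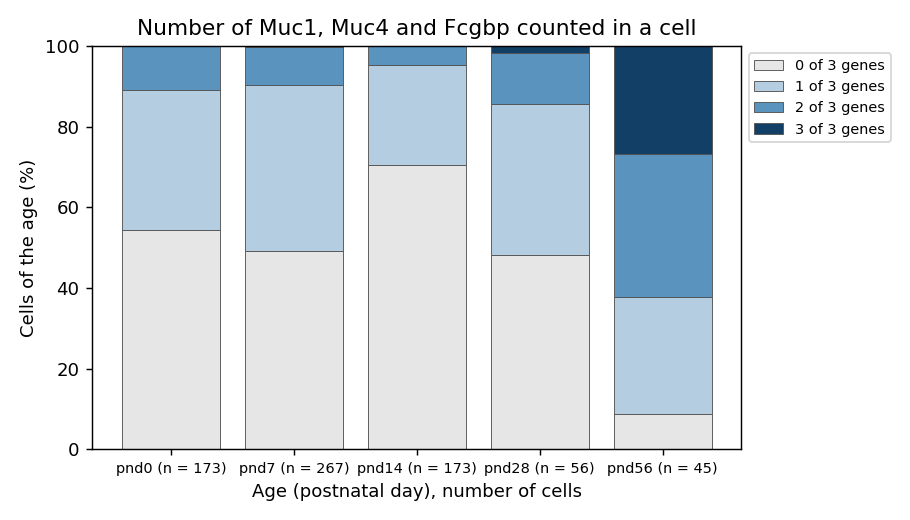
Share of the cells of each age (percent, bars from 0 to 100) with a count of none, 1, 2 or 3 of the genes Muc1, Muc4 and Fcgbp. Cells with none are 8.89% at pnd56 against 70.5% at pnd14, and cells with all 3 are 26.7% at pnd56 and at most 1.79% before.

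Within the adult sample the levels differed between cells split by other genes. In 22 adult cells with a count of Ltf, the gene of the secreted iron-binding lactoferrin, Muc1 stood at 3192 CPM [2663, 3795] against 981.05 [704.02, 1331] in the 23 cells without. Muc4 stood at 872.8 against 239.3 CPM and Fcgbp at 2020 against 933.2 CPM. The log2 ratios were 1.70 [1.18, 2.25], 1.87 [0.82, 3.05] and 1.11 [0.55, 1.70], with median depths of 1796 counts in cells with Ltf and 1575 in cells without. Split by Epcam, the gene of the sorted protein, Muc1 stood at 2986 CPM in 24 cells with a count [2508, 3527] against 869.005 CPM in 21 cells without [590.4, 1233], a log2 ratio of 1.78 [1.21, 2.39], and Fcgbp at 1731 against 1121, with 0.63 [0.06, 1.21]. Muc4 had 1.84 [0.71, 3.15]. Cells with Epcam were deeper, with a median of 1942 counts against 1383. The level of Fcgbp was lower in cells with Epcam than without at pnd0, with a log2 ratio of −1.24 [−2.31, −0.22], and at pnd7, with −0.49 [−0.92, −0.06]. At pnd0 this rests on 14 against 23 counts, and 1 cell held 9 of the 37 counts of that age. The shares of cells with Fcgbp were close, at 11.4% with Epcam and 11.8% without at pnd0, and 27.1% and 30.9% at pnd7. Fcgbp had log2 ratios of 0.45 [−0.26, 1.15] at pnd14 and −0.24 [−0.99, 0.46] at pnd28. Muc1 had 0.27 [−0.14, 0.68] at pnd0, −0.12 [−0.50, 0.27] at pnd7, 0.53 [−0.20, 1.26] at pnd14 and −0.52 [−1.50, 0.38] at pnd28, and these 4 intervals include no difference. The cells of each split belong to 1 sample, and the splits are descriptions with no test.

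**Figure D5:**
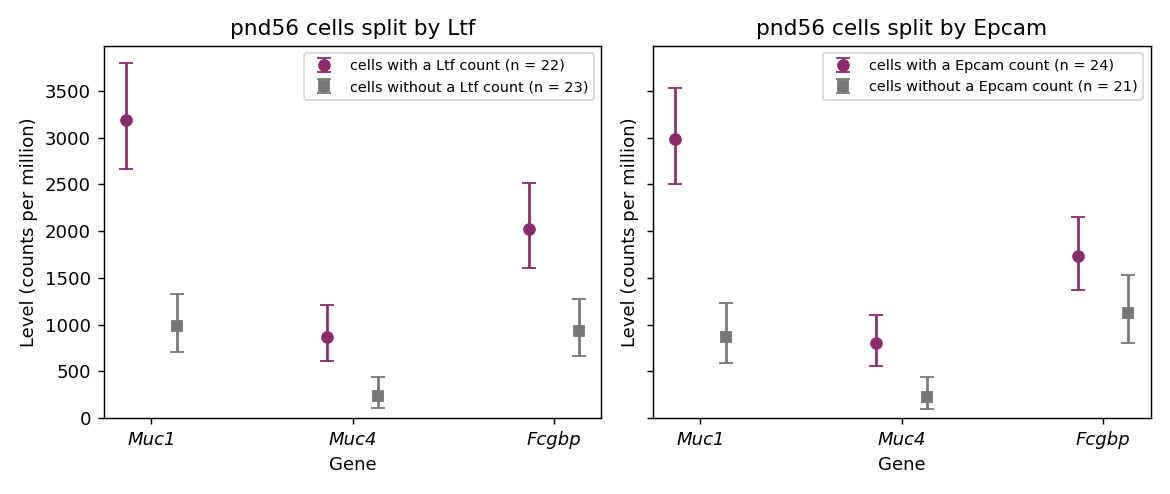
Level (counts per 1000000, axis from 0) of Muc1, Muc4 and Fcgbp in pnd56 cells with (circles) and without (squares) a count of Ltf, left, and of Epcam, right, with 95% Poisson intervals and the number of cells. Muc1 stands at 3192 against 981.05 by Ltf, with no overlap of intervals by either gene, while the intervals of Fcgbp by Epcam overlap.

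Smaller cell groups of the younger ages were set apart by a gene of another tissue. In 13 pnd0 cells with a count of Upk3a, a gene of the urothelial membrane, Muc1 stood at 146.1 CPM [47.4, 340.96] against 393.9 [343.1, 450.1] in the others. Muc4 and Fcgbp had no count in the 13 cells, which allows up to 87.7 CPM by 3 counts of the total. In the others Muc4 stood at 18.2 CPM and Fcgbp at 67.5 CPM, both under that floor. The absence of counts therefore does not set the 13 cells apart. These cells had a median of 2051 counts against 3074. Ovgp1 codes for an oviduct glycoprotein, and 17 pnd14 cells had at least 5 counts of it. In these Muc1 stood at 144.7 CPM [46.99, 337.7] against 197.2 [151.5, 252.3] in the others, and Fcgbp at 57.9 CPM [7.01, 209.1] from 2 counts against 219.1 [170.8, 276.8].

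Genes counted more in cells with a member were ranked at ages with at least 20 such cells, keeping genes with at least 30 counts that stood higher in each run with at least 5 cells on each side. Since pnd28 and pnd56 are single runs, that filter compares no runs there. The highest ratios were picked, so their size is a description. At pnd56 the 5 genes first for Muc1 were the chloride channel gene Clic4, the interferon regulator Irf3, the immediate early gene Jun, Ltf and Epcam. Ltf was at 3899 CPM in cells with Muc1 against 458.05 in the 14 cells without, and Epcam at 1040 against 124.9. In the cells without Muc1, Ltf had 11 counts, Epcam 3, and Clic4, Irf3 and Jun 1 each. Cells with Muc1 were deeper, with a median of 1891 counts against 1252.5. For Ltf and Epcam these are the same cells as in the splits above, read the other way, so they are not separate evidence. For Fcgbp they were the cytokine genes Csf3 and Cxcl2, Tfip11, Nelfe and the cornified envelope gene Sprr2b. Cxcl2 was at 1092 CPM in cells with Fcgbp against 79.9 in the 14 cells without, and Sprr2b at 9762 against 1679. In the cells without Fcgbp, Cxcl2 had 2 counts, and Csf3 and Tfip11 had 1 each. Cells with Fcgbp had a median of 1891 counts against 1480. Nelfe lies within 2 kb of Skiv2l and Cfb, so its counts may hold reads of these. At pnd28 Sprr2g, Ltf, Art3 and Plscr3 came first for Fcgbp, with Ltf at 4480 CPM in cells with Fcgbp against 645.2 in cells without, and Sprr2g at 952.03 against 99.3. Sprr2b and Sprr2g belong to a family of close copies, so their counts may be shared among them.

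At birth the cells with Muc1 carried more counts of a secreted glycoprotein. Ovgp1 was at 268.2 CPM in the 70 pnd0 cells with Muc1 against 38.2 CPM in the cells without, a log2 ratio of 2.81 [1.92, 3.83]. It rests on 72 against 12 counts and was picked as rank 2 of 972 genes ranked by this ratio. Plet1os, Dynll2, Rgs3 and Gtf3c5 were the others named at pnd0. The pnd14 cells with at least 5 counts of Ovgp1 did not stand higher in Muc1, with a log2 ratio of −0.45 [−2.12, 0.85] against the others. At pnd7 and pnd14 the first genes for Muc1 ran from log2 1.74 for Parp9 and Pus3 to 3.02 for Bcl9, a co-factor of beta-catenin, at pnd14. For Fcgbp at pnd0, pnd7 and pnd14 they ran from 1.75 for Hist2h2aa2, whose near-identical copy Hist2h2aa1 may share its reads, to 4.23 for Tex10.

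Over the 10 runs, genes with profiles most like the 3 were found by Pearson correlation of log2(CPM + 10) among 3394 or 3395 genes with at least 100 counts. Runs of 1 age are not separate samples, and pnd56 is a single run with the highest values, so r is given with and without it. Nearest to Muc1 were Pdia6, a disulfide isomerase of the endoplasmic reticulum (0.94, and 0.88 without pnd56), Tagln2 (0.92 and 0.80), Prap1, a proline-rich secreted protein gene (0.91 and 0.72), Rpn2, a subunit of the enzyme that adds N-linked sugars (0.90 and 0.69), and Cxcl2 (0.88 and 0.73). Nearest to Muc4 was Muc1 itself (0.92 and 0.75), followed by Spp1, the osteopontin gene (0.89 and 0.43), Prap1 (0.89 and 0.60), Timm10b (0.88 and 0.86) and Arpc1b (0.88 and 0.72). Each run before pnd56 had at most 8 counts of Muc4, and runs 4 and 7 of pnd14 had none. The r values of Muc4 without pnd56 are therefore not read as a likeness before the adult. Nearest to Fcgbp were the MHC class I gene H2-D1 (0.93 and 0.87), the cytochrome c gene Cycs (0.92 and 0.86), Ppp1r15b (0.89 and 0.83), the carbonic anhydrase gene Car2 (0.89 and 0.81) and Oaz1-ps (0.88 and 0.81). H2-D1 and the pseudogene Oaz1-ps have close copies whose reads may be counted with them. Fcgbp had 0.61 with Muc1 and 0.63 with Muc4, and 0.21 with each without pnd56.

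Few other mucins or mucus proteins were counted. Of 10 listed transmembrane mucin genes 4 have a row, and beside Muc1 and Muc4 these were Muc16 with 8 counts and Muc3 with 1 count over all cells. Of 29 listed secreted mucins and mucus partners 12 have a row. The gel-forming mucin genes Muc2 and Muc19 had 2 counts each. Agr2, which helps mucins to fold, had 14 counts, 10 of them at pnd28. Ovgp1 stood at 144.2, 40.9 and 2271 CPM at pnd0, pnd7 and pnd14, with no count later. The lectin gene Itln1 had 22, 47, 9, 3 and 3 counts, at 25.4 CPM at pnd14 against 64.1 at pnd7. No mucin row other than Muc1 and Muc4 reached 20 counts in any comparison.

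Enzymes that build and finish O-linked sugars were set beside the mucins for the same comparisons. Of 44 listed genes 25 have a row, and 7 had at least 20 counts over pnd56 and pnd0. Of these none was at least 2-fold higher, against 10.3% of all genes, and 2 were at least 2-fold lower, against 27.4% of all genes. The lower ones were Galnt1 with −1.04 [−2.70, 0.25] and Galnt2 with −1.69 [−7.06, 0.93]. Both intervals include no difference. These genes code for transferases that start the sugar chains. Their median log2 ratio was −0.26, against −0.34 over all genes. Nans and Cmas, which make and activate sialic acid, had 0.93 [0.0013, 1.77] and 0.90 [−0.27, 1.94]. At pnd14 over pnd7, 3 of 11 were higher, against 10.7% of all genes, and 1 was lower, against 14.3%. Higher were B3gnt5 with 1.79, Galnt1 at 231.6 against 72.3 CPM with 1.68 [1.16, 2.21] and Galnt10 with 1.46, and B3gnt7 was lower with −1.23. In the other comparisons, at pnd7 over pnd0 1 of 11 was higher, Galnt11 with 1.06, against 4.94% of all genes, and 1 was lower, B3gnt5 with −1.07, against 7.61%. At pnd28 over pnd14 1 of 4 was lower, Nans with −1.58, against 23.2% of all genes, and none was measured at pnd56 over pnd28.

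Proteins that cut, bind or signal with membrane mucins were mixed. At pnd56 over pnd0, 2 of 13 measured were higher and 3 were lower, against 10.3% and 27.4% of all genes, and the median was −0.18, against −0.34 over all genes. Higher were the kinase gene Lyn, with 134.3 against 22.3 CPM and 2.59 [1.29, 3.86], and the sheddase gene Adam10 with 1.02 [−0.04, 1.98]. Lower were Rdx, which links membrane proteins to actin, with −2.40 [−5.47, −0.49], Prkcd with −2.34 [−7.68, 0.23] and Gsk3b with −1.09 [−2.03, −0.28]. Erbb2, the receptor that rat Muc4 binds, stood at 708.2 CPM at pnd56 against 459.995 at pnd0, with 0.62 [0.19, 1.04]. At pnd14 over pnd7, 4 of 17 were higher and none was lower, against 10.7% and 14.3% of all genes, with Lgals3, the mucin-binding galectin 3, at 821.9 against 362.9 CPM, Rdx with 1.72, Jup with 1.77 and Lyn with 1.31. At pnd28 over pnd14, 1 of 13 was higher and 3 were lower, against 11.9% and 23.2% of all genes. Higher was Prkcd with 2.38, and lower were Src with −1.07, Rdx with −2.42 and Jup, with no count at pnd28, at least 2.99-fold lower. No member moved by 2-fold at pnd7 over pnd0, of 18, where 4.94% of all genes were higher and 7.61% lower, or at pnd56 over pnd28, of 9, where 14.8% were higher and 16.5% lower.

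Steroid receptors and STAT regulators, some of them known to act on mucin genes, are given in a list that also holds Lifr and Klf5. An action of the listed genes on the 3 members was not tested. Esr1, the gene of oestrogen receptor alpha, stood at 17.2, 92.8, 468.9, 374.03 and 512.9 CPM over the 5 ages, and Pgr, that of the progesterone receptor, at 34.3, 58.7, 56.5, 10.4 and 36.6 CPM from 20, 43, 20, 1 and 3 counts. Esr1 was at 468.9 CPM at pnd14, the age of the lowest Muc1, and a link between these levels was not tested. Of 12 measured genes of this list 4 were at least 2-fold higher at pnd56 than at pnd0, among them Il6st, the shared receptor of the interleukin 6 family, with 1.05 [0.34, 1.71], and 3 were lower, led by Lifr with −2.66 from 1 count. Over all genes 10.3% were higher and 27.4% lower, and the median was −0.34 against 0.09 for the list. At pnd7 over pnd0, 2 of 13 were higher and 1 was lower, against 4.94% and 7.61% of all genes, with a median of 0.29 against −0.03. At pnd14 over pnd7, 5 of 14 were higher and 2 were lower, against 10.7% and 14.3%, with a median of 0.52 against −0.10. At pnd28 over pnd14, 6 of 13 were higher and 2 were lower, against 11.9% and 23.2%, with a median of 0.46 against −0.23. At pnd56 over pnd28, none of 6 was higher and 1 was lower, against 14.8% and 16.5%, with a median of 0.05 against 0.06.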

How the data were processed

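Uterine cells sorted for CD326 were read singly by CEL-seq, per the labels' protocols. The authors deposited a table of counts, one column a cell, whose values are whole and whose totals differ between cells, so they were used as raw counts. TopHat, Cuffnorm and the build mm9 appear per the submitters' processing notes, with no role or version given. Collapsing of molecular identifiers is not stated, so intervals and floors cover counting error only. All 714 cells were used, with 586 to 9332 counts each.

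Each age is 1 sample, so no p-value was made. Levels are sums over cells per 1000000 counts with exact Poisson intervals, ratios carry exact conditional binomial intervals and shares Clopper-Pearson intervals, all at 95%. A count of 0 was set to a floor of 3 counts over the age for ratios, and no ratio was given where both ages had 3 or fewer. Genes with at least 20 counts over both ages were measured, and those at least 2-fold apart were counted. Shares at equal depth are exact expectations of thinning each cell to 1500 counts, leaving out shallower cells. Smooth muscle cells had counts of at least 3 of the 4 listed muscle genes in the table.

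The members, the gene lists and the rule for named genes were chosen with earlier results of these data known. Named were the 3 members, up to 6 members per list past 2-fold, the 5 genes nearest by correlation over runs, the 5 first companion genes per age, cell group genes and neighbours. Some listed genes are also given outside this rule, among them Muc16, Muc3, Muc2, Muc19, Agr2, Nans, Cmas and Erbb2, chosen after their values were seen. The ratio code was checked on simulated counts. Python 3.11.15, numpy 2.4.6, pandas 2.3.3, scipy 1.17.1 and matplotlib 3.10.9 were used. Promoters are from RefSeq, where 3 of 3 genes matched, and neighbours are from GENCODE M21. Some genes that the rule or the lists would name are not reported here.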

Additional observations from a re-analysis of the deposited data

How the results depend on the processing

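No paired analysis was possible because replicate numbers only name cells and no result comes from a test. Over 15 log2 ratios, all but 5 alternative values lay within the interval of the reported value, the 5 came from leaving out a run, and none reversed a direction that its interval had fixed. Leaving out single runs gave −1.32 to −0.33 for Muc1 at pnd14 over pnd7, 1.22 to 2.21 for Muc1 at pnd28 over pnd14, 1.58 to 2.78 for Fcgbp at pnd7 over pnd0 and 4.06 to 5.26 for Fcgbp at pnd56 over pnd0, and the cause was not tested. The other alternatives were equal weight per cell, median-of-ratios scaling, leaving out the cell of the largest count, muscle cells, shallow cells or erythroid and Prss genes, and, added after seeing the data, keeping only cells with Krt18. Over all of them pnd56 over pnd0 stayed between 2.22 and 2.60 for Muc1 and between 4.72 and 5.34 for Muc4, and pnd56 over pnd28 between 0.43 and 0.71 for Fcgbp and between 3.92 and 5.28 for Muc4, the highest without the cell of the largest count. Median-of-ratios scaling moved every ratio of pnd56 over pnd28 by −0.19 and of pnd56 over pnd0 by −0.23.

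With a minimum of 100 counts in place of 20 fewer genes were measured, and those at least 2-fold higher were 1.52%, 5.87%, 7.54%, 17.2% and 9.42% of them in the 5 comparisons in the order of the report. Those at least 2-fold lower were 1.71%, 7.79%, 16.3%, 10.3% and 23.8%. Their numbers fell by more than 1.5 times in each case. Of 69 shares of cells 13 left their interval, 9 of them on thinning at pnd0 and pnd7, the deepest ages. Without the pnd56 run, r over runs was 0.75 for Muc1 and Muc4 and 0.21 for each with Fcgbp. With 3 to 16 counts at each of the first 4 ages, depth limits what can be said of Muc4 before the adult.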
